A study of Drosophila melanogaster with 4 samples.

Results

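The regions described here are the H3K23ac clusters of the left arm of chromosome 3 (3L) of Drosophila melanogaster that start between positions 1 and 21000000. A cluster is a region of significant H3K23ac enrichment in the authors' chromatin immunoprecipitation and sequencing (ChIP-seq) lists, and coordinates are those of FlyBase release 5. The members were taken by chromosome and start position, with no measured value used. They numbered 1178 of the 6267 clusters of ChIP replicate 1 (18.8%), 2125 of the 11757 of replicate 2 (18.1%) and 3428 of the 17999 of the replicate set (19.0%), the authors' list for both replicates as a set. How that set was made is not stated, and it is not independent of the replicates. The study held 4 libraries from larvae of the third instar of the wild-type Oregon-R strain, 2 ChIP libraries with an antibody to H3K23ac and 2 inputs, all from nuclei and with no tissue named, each input serving the ChIP library of the same number. The inputs have no cluster list, and the lists carry no read totals, which leaves their depth unknown. Whether the replicates were separate groups of animals is not stated, and their spread may be technical.

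H3K23ac is an acetyl group on a lysine of the histone H3 tail. Acetylation lowers the charge of the tail and creates a docking site for bromodomain proteins. In flies the acetyltransferase Enok, a member of the MOZ and MORF family, acetylates this residue. Larvae of this stage carry polytene chromosomes in several tissues, in which compact bands alternate with open interbands. In bulk nuclei, weak acetylation in most cells and strong acetylation in a few cannot be told apart.

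The position at which the members end is a round number and not a change in the data. The last member of the replicate set lay between 20997924 and 21000118 with a score of 0.40, and the first cluster beyond it between 21004904 and 21005920 with a score of 0.31. In replicate 1 the last member ended at 20982451 and the next cluster started at 21030350. In replicate 2 these positions were 21000071 and 21035828. The remaining 3.54 Mb of the arm held 177, 289 and 353 clusters in replicate 1, replicate 2 and the set, over 10.3%, 22.4% and 32.9% of its sequence. Which part of 3L is euchromatin by other marks was not tested.

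H3K23ac clusters were spread over the whole of these 21 Mb, and replicate 2 held more of them than replicate 1. Replicate 1 had 56.1 clusters per Mb over 11.1% of the sequence, or 2.34 Mb. Replicate 2 had 101.2 per Mb over 24.7%, or 5.18 Mb. The replicate means were 78.6 ± 31.9 clusters per Mb and 17.9 ± 9.57% (SD, n = 2 for both). The replicate set had 163.2 clusters per Mb over 43.1%. With 2 replicates no test was possible, and how far the unknown depth sets the length of each list was not tested.

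Most members were between 1 and 3 kb wide, and the lists differed more in their widest clusters than in the median. Replicate 1 clusters had a median width of 1686.5 bp and those of replicate 2 one of 1871 bp, a mean of 1778.75 ± 130.5 bp (SD, n = 2), while set clusters had 1854 bp. The narrowest member was 1301 bp in each replicate and 1001 bp in the set. The widest 10% began at 3060.2, 4130.4 and 4873 bp, and the widest members spanned 10915, 23746 and 41893 bp. Clusters of at least 5000 bp made up 1.36% of the members in replicate 1 and 4.62% of their summed width. In replicate 2 they made up 6.31% and 18.8%, and in the set 9.48% and 30.7%.

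Neighbouring clusters lay a few kilobases apart, with rare long gaps. Replicate 1 had a median gap of 6058 bp, replicate 2 of 3184.5 bp and the set of 1467 bp, and the replicate mean was 4621.25 ± 2031.9 bp (SD, n = 2). In replicate 1, 177 gaps (15.0%) were under 1000 bp. In replicate 2 there were 497 such gaps (23.4%) and in the set 1391 (40.6%). Gaps of at least 50000 bp numbered 90, 34 and 7. The spread of gaps was therefore wide in each list, and the longest were 265753 bp (replicate 1), 149637 bp (replicate 2) and 96375 bp (set).

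**Figure D1:**
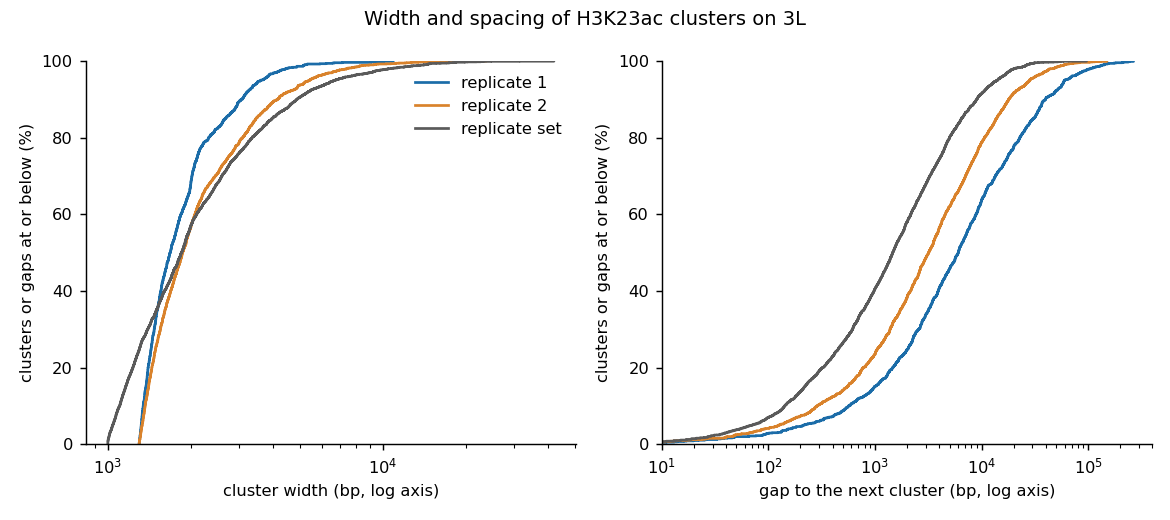
Cumulative share of clusters by width (left) and of gaps between neighbours by length (right) on 3L up to 21 Mb, one line per list, with log axes. Median gaps are 6058 bp (replicate 1), 3184.5 bp (replicate 2) and 1467 bp (replicate set), whereas median widths lie between 1686.5 and 1871 bp.

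The authors' score, the only value deposited for each cluster and one whose scale no header states, had a median of 0.54 in replicate 1, 0.53 in replicate 2 and 0.37 in the set. Because the scale is not stated, these medians stand side by side and no comparison between lists is drawn from them. The middle 50% of scores lay between 0.50 and 0.59 (replicate 1), 0.46 and 0.60 (replicate 2), and 0.33 and 0.42 (set). Scores of at least 0.6 belonged to 21.5% of the members of replicate 1, 26.5% of replicate 2 and 1.43% of the set. Width and score were positively correlated in each list, with Spearman's rho across clusters of 0.46 over 1178, 0.61 over 2125 and 0.43 over 3428. The relation did not hold over the narrow clusters of the set, whose median score was 0.36 at 1001 to 1300 bp, 0.33 at 1301 to 1499 bp and 0.34 at 1500 to 1999 bp. In replicate 1 the medians of clusters under 1500 bp and of those of 1500 to 1999 bp were both 0.52. Clusters of a list share a library, so these correlations are descriptions.

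Cluster coverage was uneven along the arm at the scale of 100 kb. Over the 210 windows of 100 kb, coverage ran from 0 to 47.7% in replicate 1 with a median of 8.46%, from 0 to 77.7% in replicate 2 with a median of 22.6%, and from 6.30 to 90.0% in the set with a median of 41.3%. At least 25% of the sequence was covered in 21 windows of replicate 1, 88 of replicate 2 and 177 of the set. The 21 windows with the highest coverage held 29.5% of the covered sequence in replicate 1, 23.1% in replicate 2 and 18.0% in the set. Relative to their mean the windows were therefore most uneven in replicate 1, with a coefficient of variation of 0.86, against 0.63 and 0.42.

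**Figure D2:**
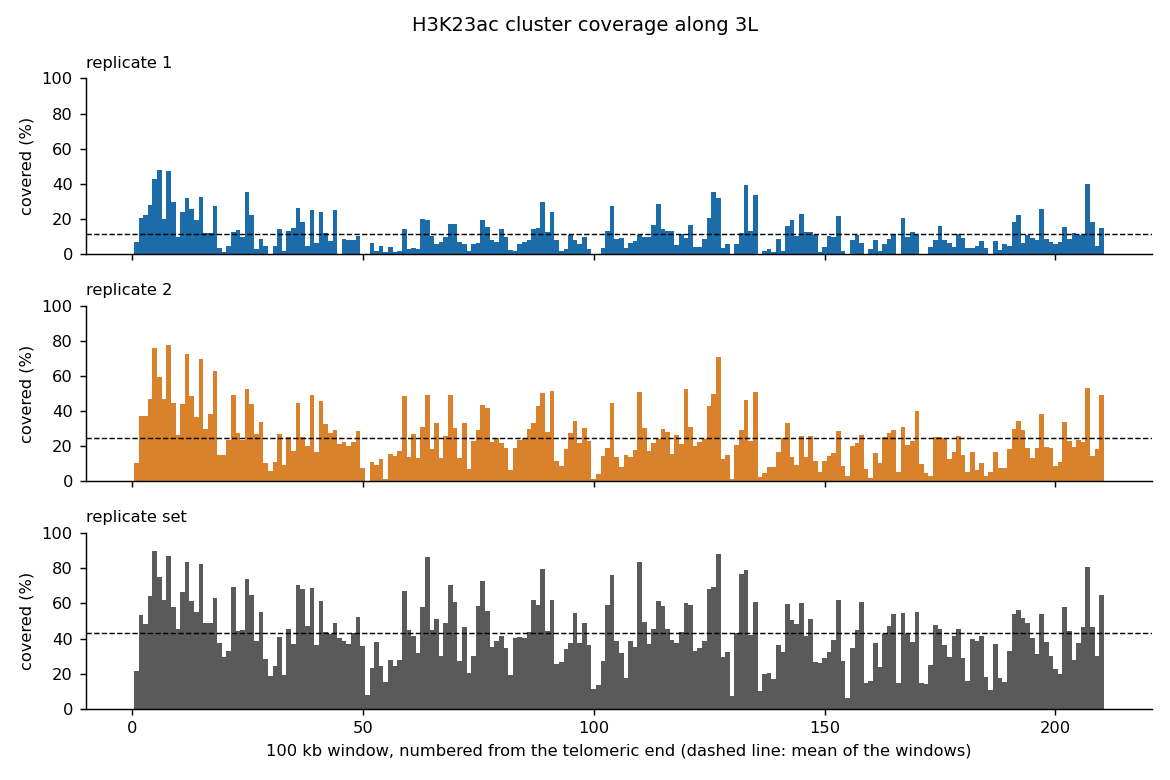
Percent of each 100 kb window of 3L covered by H3K23ac clusters, in 210 windows numbered from the telomeric end, for the replicates and the replicate set; the dashed line is the mean over windows (11.1%, 24.7% and 43.1%). The highest windows of replicates 1 and 2 stand near the left end, and window 51 is empty in both.

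By stretches of 7 Mb, coverage was highest on the telomeric side and lower towards the proximal end. The first 59769 bp of the arm nonetheless held no cluster in any list. Window 1 was 6.77% covered in replicate 1 and 10.7% in replicate 2. In the distal 7 Mb coverage was 13.7% in replicate 1, 30.4% in replicate 2 and 48.3% in the set. The middle 7 Mb had 10.5%, 24.8% and 43.2%, and the proximal 7 Mb 9.21%, 18.8% and 37.9%. The order of coverage was thus the same in each list, but that of density was not. Density fell from 63.6 to 56.6 and 48.1 clusters per Mb in replicate 1, and from 111 to 104.6 and 88 in replicate 2. In the set it rose from 156 to 165.9 and 167.9. Median gaps lengthened from distal to proximal, with 4303, 6343 and 7839.5 bp for replicate 1 and 2670.5, 3337 and 3909 bp for replicate 2. Median scores differed little, from 0.55 to 0.54 in replicate 1 and from 0.54 to 0.52 in replicate 2. The share of clusters scoring at least 0.6 fell in replicate 2, from 32.4% to 27.5% and 17.9%. In replicate 1 it was 21.8%, 22.5% and 19.9%.

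The decline was not steady from one megabase to the next. The first and the second megabase had 27.4% and 18.8% in replicate 1, and 46.3% and 43.2% in replicate 2. Beyond the first 2 Mb, coverage stayed between 3.75 and 14.3% in replicate 1 and between 9.86 and 29.8% in replicate 2. From the third to the seventh megabase it ran from 3.75 to 12.8% in replicate 1 and from 14.4 to 29.8% in replicate 2. Megabases of the middle 7 Mb ran from 7.32 to 13.1% and from 20.2 to 29.0%. The higher coverage of the distal than of the middle 7 Mb thus lay mainly in the first 2 Mb. The sixth and the nineteenth megabase from the telomere were the lowest, at 3.75% and 4.23% for replicate 1, 14.4% and 9.86% for replicate 2 and 30.0% and 26.7% for the set. In replicate 2 the sixteenth megabase, at 14.8%, was close to the sixth. The twenty-first megabase, the most proximal of the members, had 14.3%, 26.9% and 45.6%. Low megabases were therefore flanked by higher ones, and the proximal end was not the lowest stretch.

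Coverage was more alike in adjacent windows than at any larger distance computed. Spearman's rho between the coverage of a window and that of its neighbour was 0.40 in replicate 1, 0.39 in replicate 2 and 0.40 in the set. At a distance of 2 windows it was 0.21, 0.24 and 0.13, and at 3 windows 0.07, 0.12 and -0.01. It did not decline further, with 0.10, 0.22 and 0.08 at 5 windows and 0.16, 0.12 and 0.11 at 10. All pairs compared come from the same list.

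The densest H3K23ac windows lay mostly in the distal 2.5 Mb. Of the 10 windows with the highest mean coverage over both replicates, 7 started before position 2500000 (windows 5, 6, 8, 12, 15, 18 and 25), and the other 3 were windows 127, 133 and 207. Window 8, from 700001 to 800000, was 47.1% covered in replicate 1 by 15 clusters, 77.7% in replicate 2 by 13, and 87.0% in the set by 9. Window 5, from 400001 to 500000, had 42.5%, 75.9% and 90.0%. Away from the telomere, window 127 (12600001 to 12700000) had 32.1% and 70.6% in the replicates, and window 207 (20600001 to 20700000) had 40.1% and 53.0%. Over the 10 windows the replicate means ranged from 43.0 ± 5.03% to 62.4 ± 21.7% (SD, n = 2).

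The widest clusters sat in the same distal stretch. The 5 widest members of the set all started before position 2000000, as did 4 of the 5 widest of replicate 2 and 3 of the 5 widest of replicate 1. The widest of replicate 1 (790762 to 801676, score 0.68) lay inside a 16499 bp cluster of replicate 2 (790082 to 806580, score 0.61) and inside the second widest of the set (785230 to 816556, 31327 bp, score 0.60). The widest of replicate 2 (448594 to 472339, 23746 bp, score 0.68) spanned 6 clusters of replicate 1, the most that any cluster of replicate 2 met. Clusters of replicate 1 covered 74.4% of it. Outside the distal stretch, the cluster of replicate 1 from 13231915 to 13241996 was 92.6% covered by 4 clusters of replicate 2. All 15 of these widest clusters met a cluster of the other lists.

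The sparsest windows were scattered over the arm and were low in all lists. Window 51, from 5000001 to 5100000, was the only one with no covered base in either replicate, and the set covered 7.99% of it with 4 clusters. Among the 10 windows with the lowest mean coverage, 8 were empty in replicate 1, and replicate 2 covered at most 5.19% of any. The set covered between 6.30 and 16.1% of them. The lowest window of the set was window 155 (15400001 to 15500000), at 6.30%. Replicate 1 had 14 empty windows in all, 13 of which held clusters of replicate 2, with a median coverage of 4.88% over the 14. Window 45 (4400001 to 4500000) stood apart among them, with 11 clusters and 21.2% coverage in replicate 2.

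Of the 5 longest cluster-free gaps of replicate 1, 3 contained one of the 5 longest of replicate 2. The longest gap of replicate 1 ran from 4896514 to 5162266 (265753 bp) and contained the second longest of replicate 2, from 4981545 to 5131043 (149499 bp). That in turn contained the longest of the set, from 5022545 to 5118919 (96375 bp). The same nesting was found around position 10000000, where the gaps were 242799, 115789 and 54661 bp long, and around 15400000, where they were 213580, 129872 and 52661 bp long. The other two gaps of replicate 1 held more of replicate 2. From 16977601 to 17213887 it had 12 clusters over 11.7% of the length, and from 15762837 to 15971580 it had 9 over 7.09%. The longest gap of replicate 2 (13511869 to 13661505, 149637 bp) held 1 cluster of replicate 1 over 0.97% of its length. The 5 longest gaps of the set held no cluster of either replicate. Because nearly all replicate clusters overlapped the set, its gaps were largely bound to lie inside gaps of the replicates. How well reads map to these stretches was not analysed here, so a gap does not show that H3K23ac is absent.

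Coverage per window was correlated between the replicates. Over 210 windows Spearman's rho was 0.789 and Pearson's r 0.828, and r was 0.815 without the 2 most extreme windows. Without the first megabase rho was 0.768 over 200 windows. It was 0.874 in the distal 7 Mb, 0.743 in the middle and 0.723 in the proximal 7 Mb, with 70 windows each. Of the 21 highest windows of each replicate 14 were the same, 8 of them in the first 3 Mb, and of the 21 lowest 14 were the same. The windows share libraries and neighbours, and the coefficients are descriptions.

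Replicate 2 exceeded replicate 1 in 201 of the 210 windows, and how the ratio varied with density depended on which replicate ordered the windows. In the 53 windows with the lowest coverage in replicate 1, replicate 2 covered 5.50 times as much sequence, and in the 52 windows with the highest it covered 1.73 times as much. Replicate 1 is the denominator of these ratios, so ordering by it raises them in the low windows by construction. When the windows were ordered by replicate 2, coverage of replicate 1 was 0.452, 0.424, 0.408 and 0.488 times that of replicate 2. These values run from the lowest to the highest class, with no steady change. Here replicate 2 is the denominator and also orders the windows, so the ratios of its low windows are raised by construction as well. Neither ordering therefore shows how the ratio varies with density. Replicate 1 was the higher in 8 windows, among them window 143 (14200001 to 14300000) with 19.6% against 13.7% and window 114 (11300001 to 11400000) with 28.7% against 24.4%.

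**Figure D3:**
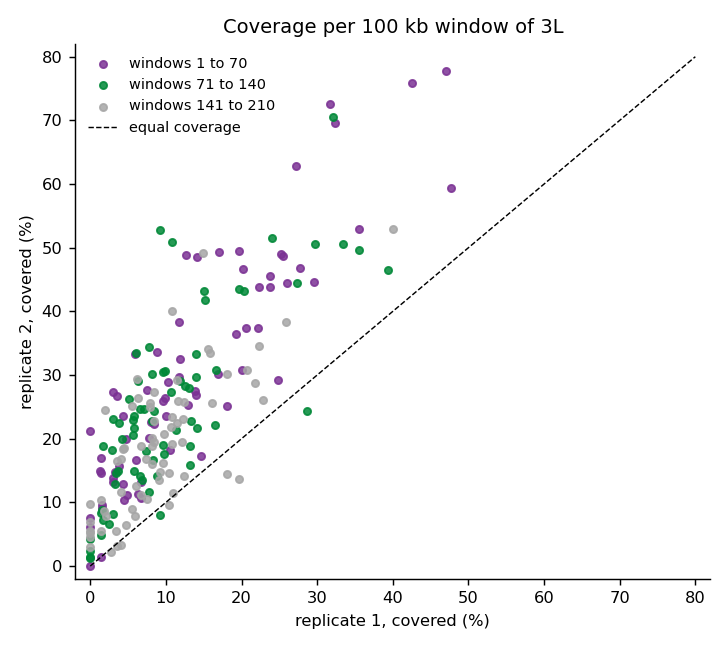
Coverage of each 100 kb window of 3L in replicate 1 (horizontal) and replicate 2 (vertical), in percent, with the 70 distal, middle and proximal windows in separate colours. The dashed line marks equal coverage; 201 of 210 windows lie above it, and 5 of the 6 windows above 60% in replicate 2 are distal.

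Windows dense in one replicate held wider and closer clusters in the other. From the 53 windows lowest in replicate 1 to the 52 highest, clusters of replicate 2 went from 5.47 to 14.7 per window, their median width from 1704 to 2095.5 bp, and the median gap to the next cluster from 7185.5 to 1874 bp. Median scores of replicate 2 changed little, with 0.53, 0.52, 0.53 and 0.54 in the 4 classes. From the 53 windows lowest in replicate 2 to the 52 highest, clusters of replicate 1 went from 2.13 to 10.3 per window, median width from 1566 to 1868 bp and the median gap from 16439 to 3482.5 bp. Median scores of replicate 1 were 0.55, 0.53, 0.54 and 0.55 in its 4 classes. From sparse to dense windows, clusters thus became more numerous, closer and wider in both replicates, while median scores showed no steady change. Each class mixes windows of different regions, and no test was run between classes.

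The number of clusters did not track coverage in the densest windows of the set. Spearman's rho between the number of cluster starts and coverage was 0.98 in replicate 1, 0.92 in replicate 2 and 0.50 in the set, over 210 windows each. The 21 highest windows of the set averaged 16.8 cluster starts, and the 21 windows nearest its median 18.4. In replicate 1 the same averages were 14.1 and 4.76, and in replicate 2 16.7 and 10.7. Window 5 of the set, with the highest coverage of all windows (90.0%), had 8 cluster starts. Window 158 (15700001 to 15800000) had the most, 32, with 60.8% coverage and a median width of 1295 bp. Counts and coverage thus ordered the windows of the set differently.

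**Figure D4:**
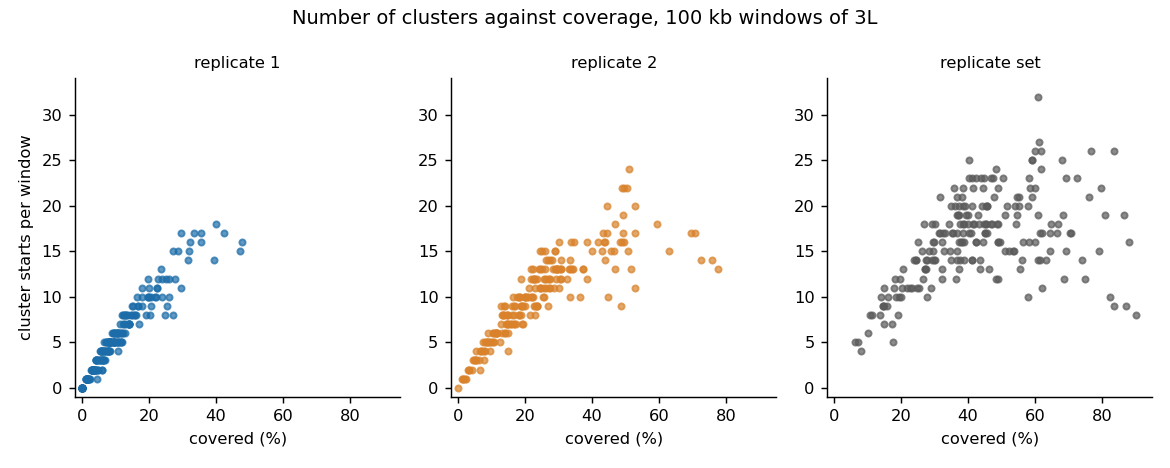
Cluster starts per 100 kb window against the percent of the window covered, for each list, one point per window. In replicates 1 and 2 the points rise together (rho 0.98 and 0.92), whereas in the replicate set the windows above 80% hold between 8 and 26 cluster starts.

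Most 3L clusters of replicate 1 were found again in replicate 2, and fewer in the other direction. Of 1178 clusters 933 (79.2%, 95% exact binomial interval 76.8 to 81.5) overlapped replicate 2 by at least 1 bp, near the 81.6% of all clusters of the list. Of the 2125 clusters of replicate 2, 881 (41.5%, interval 39.4 to 43.6) overlapped replicate 1, against 39.9% of the whole list. In bases, replicate 2 covered 69.9% of the sequence in clusters of replicate 1, and replicate 1 covered 31.6% of that in clusters of replicate 2. Intervals here cover counting error only.

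Support by the other replicate varied along the arm, only in part in the order of coverage. In the distal 7 Mb 86.1% of the clusters of replicate 1 were shared, in the middle 78.0% and in the proximal 7 Mb 71.5%. For replicate 2 the shares were 43.9%, 40.4% and 39.6%. In the first and the second megabase 95.5% and 96.3% of the clusters of replicate 1 were shared. The lowest values were 50.0% in the nineteenth and 54.0% in the fifteenth megabase. The fifteenth was better covered (11.2% and 17.6% in replicates 1 and 2) than the sixth and the sixteenth, where 70.0% and 75.7% were shared. In the 53 windows lowest in replicate 2, 57 of 113 clusters of replicate 1 (50.4%) were shared, and in its 52 highest windows 493 of 537 (91.8%). A dense list is met more often wherever a cluster lies, and the part of coverage in these shares was not tested.

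**Figure D5:**
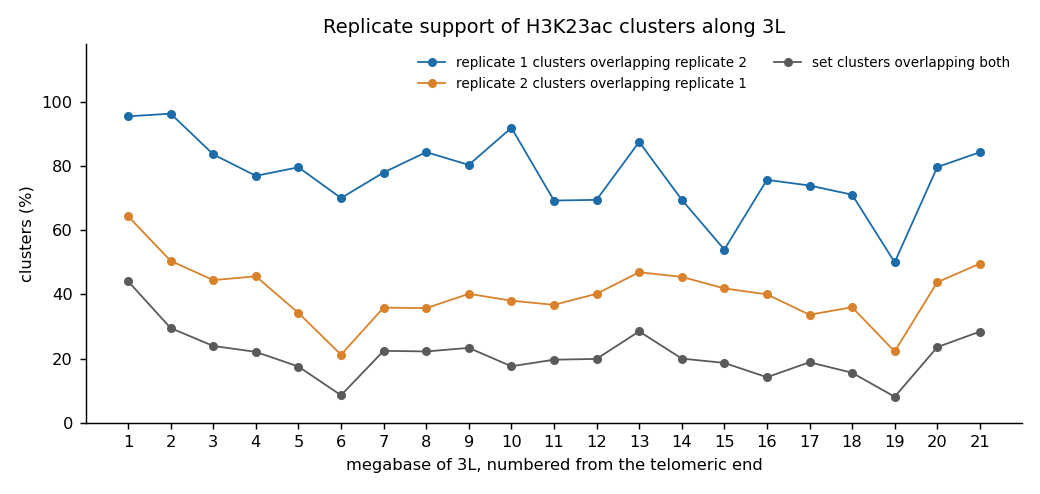
Percent of clusters with an overlap of at least 1 bp in each megabase of 3L, numbered from the telomeric end: replicate 1 clusters overlapping replicate 2, replicate 2 clusters overlapping replicate 1, and set clusters overlapping both. The shares are highest in the first 2 Mb (95.5% and 96.3% for replicate 1), and those of the nineteenth megabase are the lowest for replicate 1 (50.0%) and the set (8.11%).

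Wide clusters were shared more often than narrow ones. In replicate 1 the share went from 68.6% of the 392 clusters under 1500 bp to 97.2% of the 109 between 3000 and 4999 bp, and all 16 of at least 5000 bp were shared. In replicate 2 it went from 24.6% of 544 to 62.8% of 320, and to 91.0% of the 134 of at least 5000 bp. Shared clusters of replicate 1 had a median width of 1766 bp and the others 1497 bp; for replicate 2 these widths were 2358 and 1684.5 bp. Their median scores were 0.55 against 0.53 (replicate 1) and 0.56 against 0.51 (replicate 2). Size alone gives wide clusters more chances of an overlap, and its part in these shares was not tested.

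Clusters found in a single replicate lay at varied distances from the nearest cluster of the other, with a median of 2069 bp for replicate 1 and 5842 bp for replicate 2. Of the 245 clusters of replicate 1 without an overlap, 78 (31.8%) lay within 1000 bp of a cluster of replicate 2, and 22 lay more than 10000 bp away, at most 30540 bp. Of the 1244 such clusters of replicate 2, 170 (13.7%) lay within 1000 bp of replicate 1 and 433 more than 10000 bp away, at most 99923 bp. The set overlapped 241 of the former and 1215 of the latter. Nearly all clusters of a single replicate thus overlapped the list for the replicates as a set, which is not independent of them.

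Where exactly 1 cluster of each replicate met, the cluster of replicate 2 was usually the wider. There were 634 such pairs. Their centres lay a median of 388.5 bp apart, and 81.9% were within 1000 bp, a closeness that the overlap required of a pair partly fixes. It was the wider in 447 pairs (70.5%), by a median of 490 bp over all pairs, with median widths of 2230.5 and 1702 bp, and it contained the whole cluster of replicate 1 in 239. Widths and scores were weakly correlated across pairs (Spearman's rho 0.27 for each). A further 120 clusters of replicate 2 met 2 or more clusters of replicate 1, and 84 of replicate 1 met 2 or more of replicate 2.

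Nearly all clusters of the replicates overlapped the replicate set, whereas many members of the set overlapped no replicate. It overlapped 1173 of 1178 members of replicate 1 and 2095 of 2125 of replicate 2. Of its own 3428 members, 724 (21.1%, exact interval 19.8 to 22.5) overlapped both replicates, against 21.8% of the whole list. A further 1066 (31.1%) overlapped replicate 2 alone, 211 (6.16%) replicate 1 alone, and 1427 (41.6%, interval 39.97 to 43.3) neither, against 39.3% of the whole list. The median member found in both replicates was 4199 bp wide and scored 0.45, and the median member found in neither was 1275 bp wide and scored 0.35. None of the 841 set members narrower than 1301 bp overlapped both replicates, with an exact interval up to 0.438%, and 280 of the 325 of at least 5000 bp did (86.2%). Single set members held up to 10 clusters of replicate 1 and up to 5 of replicate 2.

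The single highest score of each list fell on a cluster that met no cluster of the other replicate or, for the set, of either. In replicate 1 the highest was 0.82, at 19725442 to 19726743 (1302 bp), with no overlap in replicate 2. The next 4, from 0.76 to 0.78 and 2077 to 3487 bp wide, overlapped replicate 2. In replicate 2 a 1371 bp cluster at 6034378 to 6035748 scored 2.87, while the second highest score was 0.98, and it met no cluster of replicate 1 or of the set. The next 4 were 3312 to 8200 bp wide and each met clusters of both other lists. In the set 5 members scored at least 1, at widths of 1013 to 1925 bp, led by 7682250 to 7684174 with 2.05 and 9573078 to 9574092 with 1.82, and none overlapped a replicate.

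Over the same 21 Mb from the telomere, 3L was close to 2L in density and coverage. Density relative to 2L was 0.99 in replicate 1 and 1.01 in replicate 2, a mean of 1.00 ± 0.021 (SD, n = 2), and coverage relative to 2L was 0.97 ± 0.014. Relative to the right arm 3R, density was 0.91 ± 0.017 and coverage 0.87 ± 0.045 (SD, n = 2). In the set the density ratio to 3R lay on the other side of 1, at 1.02, and the coverage ratio was 0.92. Relative to X, coverage was 2.15 in replicate 1 and 1.41 in replicate 2. Median score relative to X was 0.86 and 0.85. The ratios to 2L and 3R differed less between the replicates than those of coverage to X, and none was tested.

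The order of coverage from distal to proximal was the same on 2L as on 3L in each list. On 3R and X the middle 7 Mb was not between the other stretches in any list. On 2L the distal, middle and proximal 7 Mb had 14.5%, 10.4% and 9.77% in replicate 1 and 33.6%, 21.1% and 20.6% in replicate 2. On 3R the values were 11.7%, 12.8% and 12.5%, and 32.0%, 28.0% and 28.3%. On X they were 6.67%, 4.19% and 4.70%, and 22.8%, 14.1% and 15.6%. The first megabase from the telomere was 27.4% covered on 3L, 22.2% on 2L, 18.1% on 3R and 7.37% on X in replicate 1. In replicate 2 these values were 46.3%, 45.2%, 43.6% and 24.6%, so high coverage there was not particular to 3L. Spearman's rho between the replicates over 210 windows was 0.789 on 3L, 0.862 on 2L, 0.837 on 3R and 0.736 on X. Differences between arms were not tested.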

How the data were processed

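The authors deposited 3 lists of enriched regions, of the 2 H3K23ac ChIP replicates and of their replicate set, in FlyBase release 5 per the file headers. The submitters' processing notes name Bowtie 0.12.7, a read aligner. For the caller, its threshold and the combination of replicates, no details are given in the sources used here. Each region carries a score that the authors deposited with no scale stated; it was used to describe and rank regions within a list, and its medians are set side by side, or averaged over the replicates among the alternatives, with no comparison drawn between lists.

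Members were the regions on 3L starting at or before 21000000. Coverage is the union of members, cut at that position, and windows of 100 kb were counted from position 1. Overlap meant at least 1 bp. Gaps were taken between neighbouring members, which leaves out the stretch before the first member. The comparison arms were 2L, 3R and X over 21 Mb from the telomere. Replicates are given as mean ± SD (n = 2), shares with exact Clopper-Pearson 95% intervals, and no test was run, since 2 replicates allow none and regions of a library are not replicates. Depth is unknown. Regions were named by fixed ranks (the 5 widest, highest-scoring and longest gaps of each list, and the 10 highest and 10 lowest windows); other regions were named after their values were seen. The members and lists were chosen with earlier results of these data known. No annotation or genome of release 5 was used, so genes and sequences are not given. Overlap, gaps and coverage were checked on simulated regions. Python 3.11.15, numpy 2.4.6 and scipy 1.17.1 were used.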

Additional observations from a re-analysis of the deposited data

How the results depend on the processing

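No paired analysis was possible because no result comes from a test between groups; the arm ratios were taken within each replicate. Of 67 recomputed values of the 13 main results, 36 stayed within the replicate SD, the binomial interval or 1.5 times the count, and none changed direction, where a direction existed. Values that leave out 1 replicate are among these 36 by construction. Dropping 1 of 2 values always moves their mean by less than their SD. Taking members by midpoint gave the same members in each list, so its values are also among the 36 by construction. The other 31 of the 67 values moved. Merging clusters under 500 bp apart moved none of the main results. Merging gave the set alone 120.05 clusters per Mb. Mean coverage counts as within the SD only because that SD is wide: it was 10.1% with the better-scored 50% of each list and 10.5% with clusters of at least 2000 bp, against 17.9%. With the better-scored 50% of each list, density was 34.9 per Mb, median width 2319.25 bp, median gap 11569.5 bp, median score 0.605, the share of covered sequence in the top 10% of windows 35.1%, and coverage relative to the mean of 2L and 3R 0.898 (0.918 with all clusters). The shared clusters were then 56.9% and 32.3% of replicates 1 and 2, set clusters in both 17.4% and in neither 43.3%, 5 windows were empty in both replicates, and rho was 0.64. With clusters of at least 2000 bp only, these values were 31.3 per Mb, 2787 bp, 11535.5 bp, 0.598, 36.9% and 0.879, then 72.5%, 28.8% and 15.1%, with 13 empty windows and rho 0.669. Width and score rise there by the choice itself. A reciprocal overlap of 50% gave 42.9% and 23.8%, with 10.9% of set clusters in both and 46.2% in neither. Windows of 50 kb gave 12 empty windows and rho 0.764, and windows of 250 kb gave 0 and 0.848. Without replicate 1 or 2, density was 56.1 to 101.2 per Mb, coverage 11.1 to 24.7%, median width 1686.5 to 1871 bp, median gap 3184.5 to 6058 bp, median score 0.529 to 0.543, the share in top windows 23.1 to 29.5% and the ratio 0.905 to 0.932. Depth is unknown, so its part in the difference between lists was not separated.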

Other observations

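In both replicates the median score of 3L clusters rose with each 100 bp of width from 1800 to 2299 bp. In replicate 1 the median score was 0.52 for the 58 clusters 1800 to 1899 bp wide, 0.57 for the 79 clusters of 2000 to 2099 bp and 0.61 for the 18 of 2200 to 2299 bp. In replicate 2 the same medians were 0.48 (115 clusters), 0.55 (100) and 0.59 (56), and in the set 0.34 (149), 0.39 (105) and 0.39 (67). At 1900 to 1999 bp the medians of replicates 1 and 2 were 0.54 and 0.51, and at 2100 to 2199 bp 0.59 and 0.57. From 1800 to 2299 bp the numbers of clusters per 100 bp of width were 115, 106, 100, 71 and 56 in replicate 2, and 58, 61, 79, 44 and 18 in replicate 1. The rise was noticed after the data were seen, and its cause was not tested.

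The replicates differed most in windows 120, 12 and 110, chosen after their values were seen. Window 120 (11900001 to 12000000) was 9.23% covered in replicate 1 and 52.7% in replicate 2, and window 110 (10900001 to 11000000) had 10.8% and 51.0%. Window 12 (1100001 to 1200000) had 31.7% and 72.6%. Window 50 (4900001 to 5000000), empty in replicate 1 and 7.61% covered in replicate 2, was 35.7% covered in the set by 22 clusters with a median width of 1428 bp.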
